A study of Arabidopsis thaliana with 12 samples.

Results

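Roots of the Arabidopsis mutant siz1-2 were compared with Col-0 roots after both had been given IAA (indole-3-acetic acid, the main natural auxin). The comparison takes 6 of the 12 RNA-seq libraries of the study, 3 of siz1-2 with IAA and 3 of Col-0 with IAA, and all genes with at least 1 FPKM (fragments per kilobase of transcript scaled to the mapped fragments of each library) in 3 or more of the 12 libraries, which were 18743 of 23853. By the labels all seedlings were germinated on 1/2 MS medium for 7 days (the study's methods give a slightly different age), and the treated ones received 0.5 µM IAA for 3 h. The other 6 libraries are siz1-2 and Col-0 roots kept on MS without IAA, 3 each, and are shown beside the treated ones for the same genes. siz1-2 is 1 T-DNA insertion allele of SIZ1 in the Col-0 accession, so that an effect of the allele and of anything else its line carries cannot be told apart here. The sources do not say whether the 3 libraries of a group came from separate cultures, and p-values then measure only the spread between these libraries.

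SUMO is a small protein that is attached to lysines of other proteins through an activating enzyme (SAE1 and SAE2), a conjugating enzyme (SCE1) and E3 ligases, of which SIZ1 is the best known in Arabidopsis. siz1 mutants are known for raised salicylic acid and for altered phosphate, cold, nitrogen and sugar responses. Auxin is read by TIR1/AFB receptors that remove Aux/IAA repressors and so free ARF transcription factors. ARF7 and ARF19 then switch on LBD16, LBD18 and LBD29 in cells that found lateral roots. The comparison asks which transcripts depend on SIZ1 once auxin has acted.

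Col-0 IAA 1 stood apart from its group across the genome and in green-tissue markers, and siz1-2 IAA 2 in the green-tissue markers. In siz1-2 IAA 1, 2 and 3, 113, 200 and 175 genes lay over 1 log2 unit away from the average of the group partners, and in Col-0 IAA 1, 2 and 3, 1848, 318 and 536. The median level of 34 green-tissue markers (light-harvesting and Calvin-cycle genes) was 31.2 FPKM in siz1-2 IAA 2 and 41.4 FPKM in Col-0 IAA 1, and between 4.63 and 13.0 FPKM in the other 10 libraries. The summed green level ranged from 225 to 1452 FPKM in siz1-2 with IAA and from 361 to 1889 FPKM in Col-0 with IAA, with no marker at 0 in those 6 libraries. For the genes and lists described at length, values without both libraries are also given. Counts of other lists changed as well when libraries were left out. A fit with the green-tissue level as a covariate is given below. The part of the green tissue in the results was not tested beyond these settings. Markers of hair and non-hair epidermis, endodermis, pericycle, xylem and phloem, and root cap were present in every group, with none at 0 throughout a group. The files hold no read totals. The commonest ratio between low FPKM values of the same gene, which follows the worth of 1 read, put the depths of the 12 libraries between 0.896 and 1.032 of that of Col-0 MS 1.

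SIZ1 itself was lower in the mutant. With IAA it stood at 16.6, 12.8 and 14.1 FPKM in siz1-2, against 21.8, 24.7 and 28 FPKM in Col-0, and the groups did not overlap (log2 fold change -0.76 ± 0.13 SE, adjusted p = 0.00344). On MS the values were 14.8, 13.5 and 13.6 FPKM in siz1-2, against 26.2, 23.7 and 21.5 FPKM in Col-0 (log2 fold change -0.74 ± 0.13 SE, adjusted p = 0.00563). A gene-level FPKM does not show which part of the transcript was read. Log2 fold changes here and below are siz1-2 over Col-0 on the log2(FPKM + 0.5) scale, which understates the change of genes near 0, and p-values are from limma with Benjamini-Hochberg adjustment over all 18743 genes.

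The rest of the SUMO pathway did not pass the test with IAA. Of 15 tested members, SIZ1 was the 1 that fell and 0 rose (3 fell and 0 rose at an unadjusted p under 0.05), with a median log2 fold change of -0.03 beside 0.03 over all genes. SCE1, the conjugating enzyme, had 126, 156 and 124 FPKM in siz1-2, against 151, 124 and 126 FPKM in Col-0 with IAA, where the values overlapped, whereas it was higher in the mutant on MS (log2 fold change 0.54 ± 0.13 SE, adjusted p = 0.0329). SUMO2, which encodes a form of the modifier, had 149.9, 156 and 161 FPKM in siz1-2, against 179.5, 197 and 163 FPKM in Col-0 (log2 fold change -0.20 ± 0.13 SE, adjusted p = 0.34). It was lower in every mutant library but did not pass the test. SAE1A had 28.1, 26 and 25.4 FPKM in siz1-2, against 21.7, 26.7 and 24.4 FPKM in Col-0 (log2 fold change 0.13 ± 0.11 SE, adjusted p = 0.5). SAE2 had 30.2, 26.2 and 30.1 FPKM in siz1-2, against 14.5, 28.8 and 25.5 FPKM in Col-0 (log2 fold change 0.38 ± 0.21 SE, adjusted p = 0.282). HPY2, another SUMO ligase, had 10.3, 10.8 and 9.14 FPKM in siz1-2, against 10.6, 10.5 and 12.2 FPKM in Col-0 (log2 fold change -0.13 ± 0.16 SE, adjusted p = 0.631). The genotypes overlapped in all 3.

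Across all genes, 292 were higher in siz1-2 than in Col-0 with IAA by at least 2-fold at an adjusted p under 0.05 (1.56% of those tested), and 312 were lower (1.66%). These 604 are called DEGs below. Without the fold limit, 732 genes rose (3.91%) and 977 fell (5.21%), and these shares are the background against which the members of each list can be read. An unadjusted p under 0.05 was reached by 4697 of the 18743 genes, both directions together, which is the background for the unadjusted counts. The 3 libraries of siz1-2 lay entirely above or below the 3 of Col-0 for 598 of the 604 DEGs, and for 28.7% of all genes tested. Without Col-0 IAA 1 and siz1-2 IAA 2 there were 572 DEGs, of which 468 were among the 604 (77.5% of them), all with the same sign. Leaving out 1 IAA library at a time kept between 73.8% and 86.3% of the 604, the lowest without siz1-2 IAA 3. With the mean log2 level of the green-tissue markers as a covariate there were 564 DEGs, of which 528 were among the 604 (87.4% of them).

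The 12 largest rises (among DEGs with a mean of 5 FPKM or more in the higher group and no overlap) included secreted, detoxifying and transport proteins. The lack of overlap with IAA was a condition of this choice and of that of the 12 largest falls. AT4G33720, a CAP-family secreted protein of the kind that includes PR-1, had 22.6, 15 and 6.73 FPKM in siz1-2, against 1.23, 0.212 and 0.255 FPKM in Col-0 (log2 fold change 3.81 ± 0.59 SE, adjusted p = 0.00159). ChlAKR, an aldo-keto reductase that reduces reactive aldehydes, had 27.5, 22.3 and 23.2 FPKM in siz1-2, against 2.1, 1.47 and 0.963 FPKM in Col-0 (log2 fold change 3.66 ± 0.23 SE, adjusted p = 3.15e-06). AT5G66780, annotated as a late embryogenesis abundant protein, had 25.9, 22.5 and 18.8 FPKM in siz1-2, against 1.28, 2.71 and 2.6 FPKM in Col-0 (log2 fold change 3.12 ± 0.23 SE, adjusted p = 7.04e-06). Every siz1-2 library was several times above every Col-0 library for each of the 3, though AT4G33720 varied more than 3-fold among the mutant libraries.

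Transporters formed part of the same set. ALMT1, the channel that releases malate from root tips and whose expression is known to require STOP1, had 92.4, 96.5 and 113 FPKM in siz1-2, against 12.4, 21.6 and 24.2 FPKM in Col-0 (log2 fold change 2.39 ± 0.24 SE, adjusted p = 7.9e-05). STOP1 itself overlapped between the genotypes, at 98.1, 95.4 and 92.7 FPKM in siz1-2, against 109, 88.2 and 105 FPKM in Col-0 (log2 fold change -0.07 ± 0.10 SE, adjusted p = 0.673). BOR5, of the borate transporter family, had 7.36, 4.79 and 5.72 FPKM in siz1-2, against 0.47, 0.455 and 0.807 FPKM in Col-0 (log2 fold change 2.58). ABCG8, an ABC transporter, had 4.68, 5.79 and 5.6 FPKM in siz1-2, against 0.986, 0.393 and 0.651 FPKM in Col-0 (log2 fold change 2.34). AT3G21080, an ABC transporter-like protein, had 4.83, 5.94 and 4.72 FPKM in siz1-2, against 0.335, 0.609 and 0.146 FPKM in Col-0 (log2 fold change 2.74). Both stood at low levels in Col-0. On MS, ABCG8 stood at 0.46, 0.299 and 1.01 FPKM in siz1-2, against 0.0647, 0.0648 and 0.0929 FPKM in Col-0, and its difference there was not past the test (log2 fold change 0.87 ± 0.25 SE, adjusted p = 0.071).

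The remaining 5 of the 12 were a legume lectin, a leucine-rich repeat protein, an oxidoreductase, a TRAF-like protein and a cytochrome P450. AT3G16530, the lectin, had 23.9, 42.5 and 63.4 FPKM in siz1-2, against 5.53, 4.05 and 4.97 FPKM in Col-0 (log2 fold change 2.93 ± 0.42 SE, adjusted p = 0.000885). AT1G33600, the leucine-rich repeat protein, had 15.9, 16.2 and 20 FPKM in siz1-2, against 3.35, 1.26 and 1.89 FPKM in Col-0 (log2 fold change 2.81). AT1G60750, the oxidoreductase, had 26.7, 19.5 and 19.7 FPKM in siz1-2, against 1.8, 3.51 and 3.78 FPKM in Col-0 (log2 fold change 2.71), and how reads common to it and the similar AT1G60730 and AT1G60740 beside it were shared is not known. AT1G65150, the TRAF-like protein, rose by 2.32 and CYP706A1 by 2.29 on the log2 scale. All 12 rises kept their direction and their call without Col-0 IAA 1 and siz1-2 IAA 2.

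**Figure D1:**
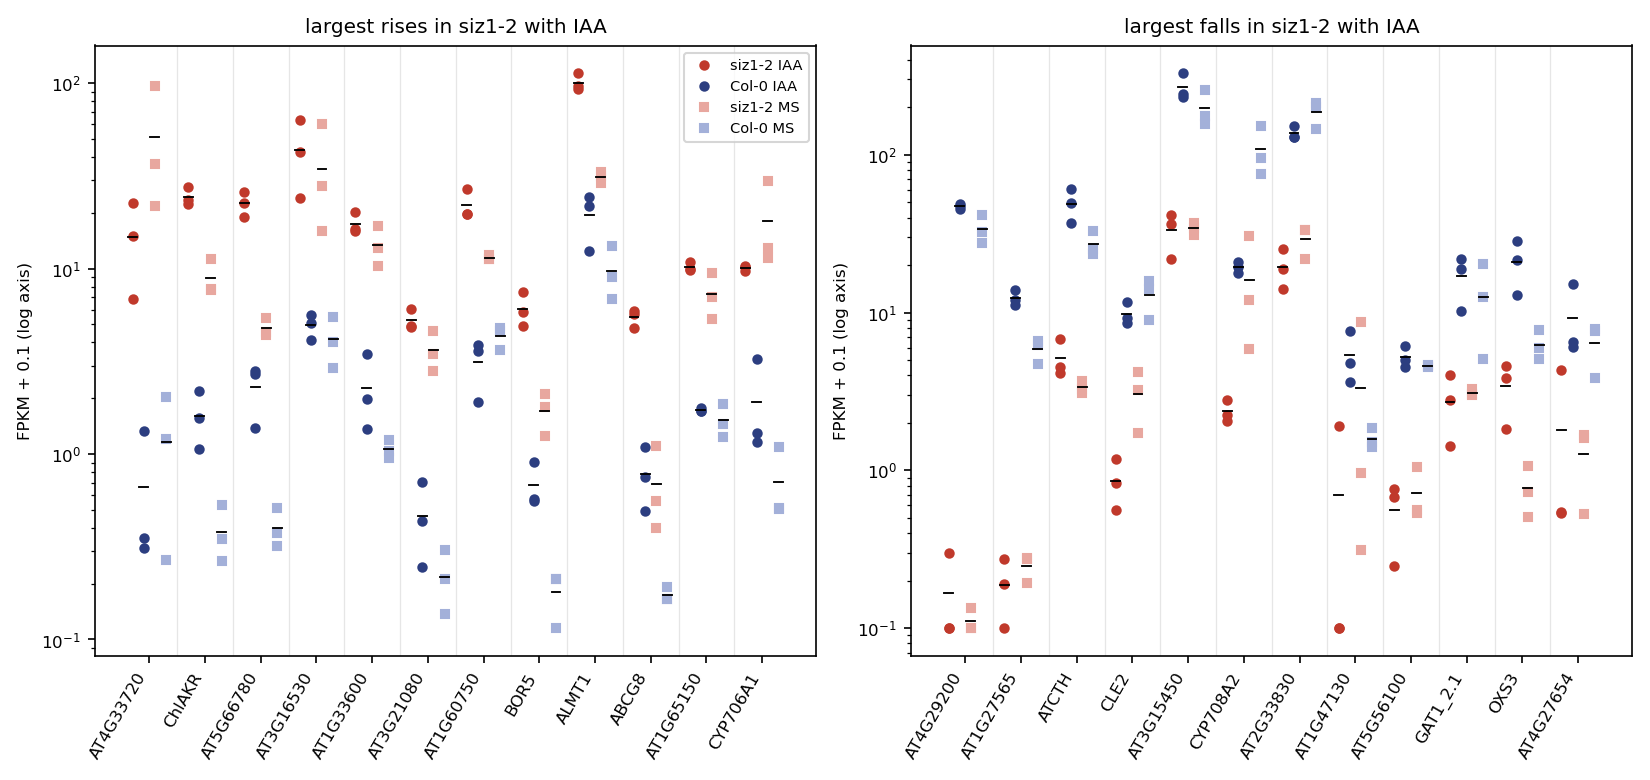
FPKM + 0.1 on a log axis for the 12 genes with the largest rises (left panel) and the 12 with the largest falls (right panel) in siz1-2 with IAA. Each point is 1 library (circles with IAA, squares on MS), siz1-2 in red and Col-0 in blue, and bars are group means. The circles separate by genotype through the rule of choice. For most genes the squares separate as well, while those of AT1G47130 are mixed.

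The largest falls opened with a pair of genes that were near 0 in every siz1-2 library. AT4G29200, annotated as a beta-galactosidase related protein, had 0, 0.199 and 0 FPKM in siz1-2, against 45.4, 47.5 and 48.3 FPKM in Col-0 with IAA, and 0, 0 and 0.0348 FPKM in siz1-2, against 32.4, 27.4 and 41.6 FPKM in Col-0 on MS. AT1G27565, an uncharacterized protein, had 0.175, 0 and 0.0917 FPKM in siz1-2, against 11, 13.9 and 11.9 FPKM in Col-0 with IAA, and 0.172, 0.177 and 0.0928 FPKM in siz1-2, against 4.63, 6.16 and 6.52 FPKM in Col-0 on MS. No other tested gene had all 6 libraries of 1 genotype under 0.5 FPKM and all 6 of the other at 2 FPKM or more. Their fitted log2 fold changes with IAA were -6.41 and -4.44, values that depend on the 0.5 added before taking logs. Of the tested genes among the 5 on each side of them, none passed the test with IAA, while AT5G60430, next to SIZ1, fell (adjusted p = 0.0422).

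The next falls included regulators and genes named for stress or dormancy, beside CYP708A2, described with its gene cluster below. ATCTH, a tandem CCCH zinc-finger protein, had 6.68, 4.05 and 4.4 FPKM in siz1-2, against 49.6, 60.1 and 36.6 FPKM in Col-0 (log2 fold change -3.15 ± 0.21 SE, adjusted p = 4.32e-06). CLE2, a secreted signalling peptide of the CLAVATA3 family, had 0.463, 0.729 and 1.08 FPKM in siz1-2, against 11.6, 8.54 and 9.08 FPKM in Col-0 (log2 fold change -3.04 ± 0.29 SE, adjusted p = 6.9e-05). AT3G15450, annotated as an aluminium-induced protein, had 41.2, 21.6 and 36.4 FPKM in siz1-2, against 243, 328 and 230.5 FPKM in Col-0 (log2 fold change -3.03 ± 0.23 SE, adjusted p = 9.3e-06). For each of the 3 the lowest Col-0 library was more than 5 times the highest siz1-2 library.

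AT2G33830, a dormancy- and auxin-associated protein, had 25, 14 and 18.7 FPKM in siz1-2, against 153, 129 and 129.9 FPKM in Col-0 (log2 fold change -2.84 ± 0.22 SE, adjusted p = 9.3e-06). GAT1_2.1, a glutamine amidotransferase-like protein, had 2.67, 1.32 and 3.89 FPKM in siz1-2, against 10.2, 21.8 and 18.7 FPKM in Col-0 (log2 fold change -2.49). OXS3, named for oxidative stress tolerance, had 4.49, 1.72 and 3.75 FPKM in siz1-2, against 12.8, 28.3 and 21.3 FPKM in Col-0 (log2 fold change -2.49). In these 3 genes siz1-2 IAA 2 was the lowest library of all. AT5G56100, a glycine-rich oleosin-like protein, had 0.579, 0.147 and 0.658 FPKM in siz1-2, against 4.44, 6.03 and 4.93 FPKM in Col-0 (log2 fold change -2.59).

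A pair of the 12 falls rested on few libraries. AT1G47130, an uncharacterized protein, had 0, 0 and 1.8 FPKM in siz1-2, against 7.55, 3.54 and 4.68 FPKM in Col-0 (log2 fold change -2.73 ± 0.77 SE, adjusted p = 0.0423), and without Col-0 IAA 1 and siz1-2 IAA 2 its adjusted p was 0.194. AT4G27654, a small transmembrane protein, had 0.437, 0.443 and 4.22 FPKM in siz1-2, against 15.1, 6.4 and 5.98 FPKM in Col-0 (log2 fold change -2.46 ± 0.57 SE, adjusted p = 0.017), and without both libraries its adjusted p was 0.121. In both genes siz1-2 IAA 3 was the highest mutant library.

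The genes through which auxin is made, moved and read gave few calls between the treated genotypes. TIR1 had 37, 34.6 and 35.9 FPKM in siz1-2, against 50.3, 39.9 and 42.2 FPKM in Col-0 (log2 fold change -0.29 ± 0.12 SE, adjusted p = 0.135), and of 8 auxin receptor genes 0 rose and 0 fell (1 fell at an unadjusted p under 0.05). The membrane kinase TMK1 had 15.4, 12.5 and 15.4 FPKM in siz1-2, against 16.7, 14.2 and 16.8 FPKM in Col-0, overlapping between genotypes. Of 23 transport genes 1 rose, ABCB21, an auxin carrier of the ABCB family, by 0.76, a call that was lost without both libraries (adjusted p = 0.0625). LAX3, the influx carrier of cells above a primordium, had 263, 292 and 338 FPKM in siz1-2, against 389, 343 and 372 FPKM in Col-0 and did not pass the test (log2 fold change -0.31 ± 0.11 SE, adjusted p = 0.0872).

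Auxin synthesis held more differences. Of 23 synthesis and inactivation genes 4 rose and 1 fell (17.39% and 4.35%). UGT74E2, which glucosylates the auxin indole-3-butyric acid, had 69.1, 52 and 47.6 FPKM in siz1-2, against 19.7, 28.1 and 24 FPKM in Col-0 (log2 fold change 1.21 ± 0.25 SE, adjusted p = 0.00815). The nitrilase NIT2, which can turn indole-3-acetonitrile into IAA, had 178, 161 and 166 FPKM in siz1-2, against 90, 81.8 and 66.1 FPKM in Col-0 (log2 fold change 1.09 ± 0.17 SE, adjusted p = 0.00142). NIT1, a close relative beside it, rose by 0.89. In all 3 the genotypes were separated, and all 3 also rose on MS (log2 fold changes 1.17, 1.52 and 0.97).

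ASA1, the first enzyme of tryptophan synthesis, rose by 0.65, and its call was lost without both libraries that stood apart (adjusted p = 0.134). YUC6, a flavin monooxygenase of the last step to IAA, had 8.67, 8.25 and 8.64 FPKM in siz1-2, against 11.5, 13.4 and 16.1 FPKM in Col-0 (log2 fold change -0.64 ± 0.14 SE, adjusted p = 0.0138). With 1 IAA library left out, 0 to 2 of the 23 synthesis and inactivation genes fell, so the call of YUC6 did not hold in all of those fits. TAA1, the enzyme before it, had 35, 34.3 and 35.8 FPKM in siz1-2, against 33.3, 36.9 and 32.3 FPKM in Col-0 and did not pass the test (log2 fold change 0.04 ± 0.12 SE, adjusted p = 0.875). Of the 7 GH3 enzymes, which join IAA to amino acids, 0 rose and 0 fell (0 and 2 at an unadjusted p under 0.05). GH3.3 reached 712, 766 and 819.7 FPKM in siz1-2, against 763, 639.6 and 728 FPKM in Col-0, which overlapped between genotypes.

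Among the transcription factors of the auxin response, the ARFs had 0 rises and 0 falls of 13 (4 higher and 1 lower at an unadjusted p under 0.05). ARF7, listed as NPH4, had 15.1, 11.9 and 12.6 FPKM in siz1-2, against 7.22, 7.18 and 12.8 FPKM in Col-0 (log2 fold change 0.56 ± 0.22 SE, adjusted p = 0.126). ARF19 had 34.3, 26.8 and 39.3 FPKM in siz1-2, against 7.97, 21.3 and 30.3 FPKM in Col-0 (log2 fold change 0.91 ± 0.35 SE, adjusted p = 0.122). In both genes Col-0 IAA 3 lay within the mutant range, and without that library 4 of 13 ARFs, this pair included, passed the test as higher. Of 25 Aux/IAA repressors IAA18 rose (log2 fold change 0.70 ± 0.20 SE, adjusted p = 0.0429) and IAA6 fell (log2 fold change -0.76 ± 0.21 SE, adjusted p = 0.0438), and neither passed without both libraries. IAA17, listed as AXR3, had 134, 156 and 140.4 FPKM in siz1-2, against 174, 212 and 144 FPKM in Col-0 and did not pass (log2 fold change -0.28 ± 0.14 SE, adjusted p = 0.243).

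The LBD genes split by member. LBD29 had 180.2, 195 and 243 FPKM in siz1-2, against 174, 236 and 219.5 FPKM in Col-0 (log2 fold change -0.02 ± 0.20 SE, adjusted p = 0.957), so that its level with IAA overlapped completely between genotypes. LBD16 had 26.1, 30 and 36.4 FPKM in siz1-2, against 13.9, 26.6 and 26 FPKM in Col-0 (log2 fold change 0.51 ± 0.25 SE, adjusted p = 0.229). LBD18 had 44.7, 52.4 and 55.5 FPKM in siz1-2, against 68.3, 60.7 and 65.8 FPKM in Col-0 (log2 fold change -0.35 ± 0.17 SE, adjusted p = 0.204). LBD18 was lower in every siz1-2 library and LBD16 overlapped, and neither passed the test. On MS all 3 were lower than with IAA, LBD29 at 5.48, 3.55 and 5.16 FPKM in siz1-2, against 5.32, 4.96 and 3.19 FPKM in Col-0.

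Other members of that family differed. LBD33, a partner of LBD18 in activating cell-cycle genes, had 23.4, 27.8 and 25.1 FPKM in siz1-2, against 9.8, 10 and 9.14 FPKM in Col-0 (log2 fold change 1.35 ± 0.22 SE, adjusted p = 0.0023). LBD17, listed as ASL15, had 13.1, 14 and 15.6 FPKM in siz1-2, against 5.83, 7.24 and 5.67 FPKM in Col-0 (log2 fold change 1.13 ± 0.23 SE, adjusted p = 0.00742). LBD4, a gene of the vascular cambium, was lower, at 7.07, 9.06 and 7.06 FPKM in siz1-2, against 20.4, 13.8 and 12.8 FPKM in Col-0 (log2 fold change -0.95 ± 0.18 SE, adjusted p = 0.00582). All 3 were separated by genotype with IAA, and without both libraries their log2 fold changes were 1.3, 1.1 and -0.86, all past the test. On MS none of the 3 passed it (adjusted p = 0.74, 0.181 and 0.905), and the difference between treatments did not pass its own test for any of them.

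Of 25 genes that act as lateral roots are initiated and primordia form, 5 rose and 1 fell (20.0% and 4.00%), with a median of 0.23. AIL7, the PLETHORA factor PLT7 of young primordia, had 4.67, 6.4 and 5.51 FPKM in siz1-2, against 1.08, 1.77 and 1.84 FPKM in Col-0 (log2 fold change 1.56 ± 0.20 SE, adjusted p = 0.000463). LRP1, a primordium marker, had 17.9, 17 and 15.2 FPKM in siz1-2, against 8.69, 6.26 and 8.14 FPKM in Col-0 (log2 fold change 1.08 ± 0.20 SE, adjusted p = 0.00427). PUCHI, an AP2-type factor that limits cell divisions at the flanks of primordia, had 20.5, 23.8 and 34.2 FPKM in siz1-2, against 14.4, 13.5 and 14.9 FPKM in Col-0 (log2 fold change 0.82 ± 0.18 SE, adjusted p = 0.0122). The genotypes did not overlap in any of the 3, and PUCHI lost its call without siz1-2 IAA 3.

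CRF3, a cytokinin response factor that acts in lateral root initiation, rose by 0.56 and WOX11, a factor of root founder cells, by 1.00, and WOX11 lost its call without both libraries (adjusted p = 0.111). TMO6, a target of the ARF MONOPTEROS, fell by 0.67 on the log2 scale (adjusted p = 0.0108) and lost its call without siz1-2 IAA 3. Counts of rises ran from 3 (without siz1-2 IAA 3) to 7 when single libraries were left out. Of 12 genes of emergence and cell separation, 0 rose and 0 fell (1 fell at an unadjusted p under 0.05, and 1 fell without both libraries).

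EXPA14, an expansin of overlying cells, had 15.2, 19.3 and 15.8 FPKM in siz1-2, against 18.9, 17 and 18.7 FPKM in Col-0. IDA, a peptide that triggers cell separation, had 1.51, 3.74 and 2.67 FPKM in siz1-2, against 1.95, 2.42 and 1.65 FPKM in Col-0, and its receptor HSL2 had 6.5, 6.01 and 5.64 FPKM in siz1-2, against 5.43, 5.42 and 5.89 FPKM in Col-0. In each of these genes the genotypes overlapped. ERF13, a repressor of emergence, had 0.566, 0.737 and 0.127 FPKM in siz1-2, against 2.94, 0.584 and 1.0 FPKM in Col-0 (log2 fold change -0.92 ± 0.45 SE, adjusted p = 0.222), with 1 Col-0 library within the mutant range. The kinase MPK3 had 38.3, 33.6 and 37.3 FPKM in siz1-2, against 25.5, 39.4 and 30.4 FPKM in Col-0, and MPK6 had 67.7, 66.2 and 81.1 FPKM in siz1-2, against 63.3, 70.1 and 60.6 FPKM in Col-0. Neither kinase was separated.

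SAUR genes, small auxin-induced transcripts tied to cell expansion, leaned downwards. Of 41 tested, 6 fell and 1 rose (14.6% and 2.44%), and the median was -0.34 with IAA. On MS there were 1 fall and 2 rises, where 2.55% of all genes fell and 2.75% rose. AT3G12830 (SAUR72) had 6.5, 7.19 and 12.3 FPKM in siz1-2, against 33.6, 22.6 and 17.6 FPKM in Col-0 (log2 fold change -1.46 ± 0.27 SE, adjusted p = 0.00512). AT3G60690 (SAUR59) had 12.9, 12.2 and 11.3 FPKM in siz1-2, against 30.7, 22.4 and 23.2 FPKM in Col-0 (log2 fold change -1.03 ± 0.17 SE, adjusted p = 0.00233). SAUR36 had 18.6, 14.5 and 15.4 FPKM in siz1-2, against 33.7, 25.7 and 25.2 FPKM in Col-0 (log2 fold change -0.78 ± 0.16 SE, adjusted p = 0.0097). In each, siz1-2 was lower in every library and Col-0 IAA 1 was the highest of the 6. Falls numbered 5 of 41 without both libraries and from 3 (without siz1-2 IAA 1) to 7 when 1 library was left out. At an unadjusted p under 0.05, 11 members passed the test of the difference between treatments, beside 2124 of all 18743 genes. After adjustment 1 member passed it, AT2G36210 (SAUR45), described below.

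Of 30 tested members of the root hair list 13 rose and 0 fell (43.3%, beside 3.91% of all genes), with a median of 0.57, and 19 rose and 0 fell at an unadjusted p under 0.05. RHD6, the bHLH factor that starts hair formation, had 10.9, 11.8 and 14.7 FPKM in siz1-2, against 5.17, 9.97 and 7.64 FPKM in Col-0 (log2 fold change 0.72 ± 0.20 SE, adjusted p = 0.0382). RSL4, the factor below it that drives hair growth, had 7.5, 8.52 and 7.97 FPKM in siz1-2, against 3.13, 5.8 and 4.97 FPKM in Col-0 (log2 fold change 0.76 ± 0.19 SE, adjusted p = 0.0242). Both factors were separated by genotype, and both lost their calls without Col-0 IAA 1 and siz1-2 IAA 2 (adjusted p = 0.101 and 0.0929). RHD2, the NADPH oxidase of the growing tip, had 21.4, 20.9 and 25.5 FPKM in siz1-2, against 8.35, 12.8 and 12.2 FPKM in Col-0 (log2 fold change 1.01 ± 0.17 SE, adjusted p = 0.00239). LRX1, a cell-wall leucine-rich repeat extensin, had 16.2, 22.2 and 33.4 FPKM in siz1-2, against 12.4, 5.51 and 7.67 FPKM in Col-0 (log2 fold change 1.45 ± 0.27 SE, adjusted p = 0.00448). In these as well the genotypes were separated, and their calls held in every setting tried.

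PRP1, a structural proline-rich protein of the hair wall, had 32.2, 48.4 and 47.8 FPKM in siz1-2, against 21.9, 16.6 and 16.9 FPKM in Col-0 (log2 fold change 1.18 ± 0.18 SE, adjusted p = 0.00139). LRX2, a homologue of LRX1, had 16.1, 18.1 and 18.5 FPKM in siz1-2, against 12.3, 4.68 and 7.34 FPKM in Col-0 (log2 fold change 1.16). SHV2 (COBL9), a COBRA-like wall protein, had 8.78, 12.1 and 11.4 FPKM in siz1-2, against 7.35, 3.25 and 5.1 FPKM in Col-0 (log2 fold change 1.03). All 3 wall genes were separated, with Col-0 IAA 1 the highest Col-0 library in each. The other 6 that passed (PRP3, RHS18, PERK13, HA7, ADF8 and LRL2) rose by 0.50 to 0.84. siz1-2 IAA 3 was the highest of the 6 libraries for 10 of the 13, siz1-2 IAA 1 was the lowest mutant library for 11, and of the 13 PRP3 alone overlapped between genotypes.

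The size of this shift depended on the libraries used. Without both libraries 8 of 30 rose, without siz1-2 IAA 1 alone 8, without siz1-2 IAA 2 alone 5, and without siz1-2 IAA 3 alone 3. When the 6 IAA libraries were fitted alone, 3 of 30 passed. The median stayed positive, at 0.50 without both libraries. On MS 2 of 30 rose (beside 2.75% of all genes) and 0 fell, with a median of 0.34.

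The 12 markers of hair cells are all in that list, and 8 of them are among the 13. Their summed level was 380 to 563 FPKM in siz1-2 with IAA and 297 to 345 FPKM in Col-0 with IAA, and 555 to 578 FPKM in siz1-2 on MS and 357 to 436 FPKM in Col-0 on MS, with none at 0. Of 6 markers of non-hair cells 0 rose and 0 fell, also at an unadjusted p under 0.05, and their sums were 19.0 to 21.0 FPKM in siz1-2 with IAA and 15.2 to 23.2 FPKM in Col-0 with IAA. The part of hair cell number in the root hair counts was not tested, since in RNA of whole roots more cells of a type and more RNA per cell cannot be told apart.

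**Figure D2:**
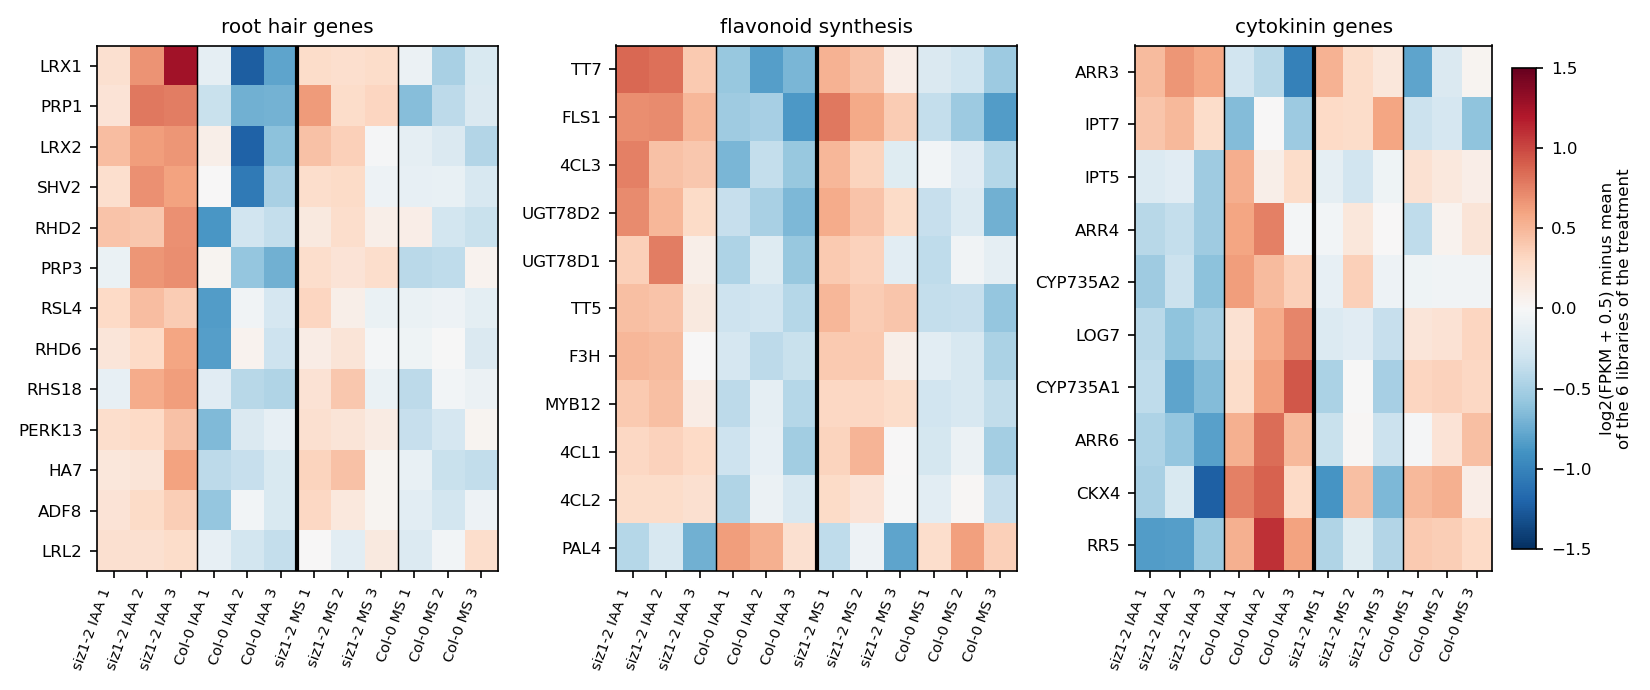
Level in each library of the members past the test in the root hair, flavonoid and cytokinin lists, as log2(FPKM + 0.5) minus the mean of the 6 libraries of the same treatment (with IAA left of the thick line, on MS right of it, siz1-2 left of Col-0 within each). All rows but PAL4 in the flavonoid panel are higher in siz1-2, siz1-2 IAA 3 is the highest library for most root hair genes, and 8 of 10 cytokinin rows are lower in siz1-2.

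Most tested genes of flavonoid synthesis were higher in siz1-2. Of 17 genes tested 10 rose and 1 fell (58.8% and 5.88%), with a median of 0.64 with IAA and 8 rises and 1 fall on MS. TT7, the flavonoid 3'-hydroxylase that makes quercetin, had 7.86, 7.61 and 5.51 FPKM in siz1-2, against 2.6, 2.1 and 2.36 FPKM in Col-0 (log2 fold change 1.38 ± 0.18 SE, adjusted p = 0.000423). FLS1, the flavonol synthase, had 150.5, 152 and 131 FPKM in siz1-2, against 64.3, 65.4 and 50.9 FPKM in Col-0 (log2 fold change 1.26 ± 0.15 SE, adjusted p = 0.000271). MYB12, the factor that switches on flavonol genes, had 14.9, 15.6 and 12.1 FPKM in siz1-2, against 8.4, 10.2 and 8.24 FPKM in Col-0 (log2 fold change 0.64 ± 0.13 SE, adjusted p = 0.0092). The genotypes were separated in each, and the call of MYB12 was lost without both libraries (adjusted p = 0.0503).

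The other members that passed rose as well, apart from PAL4. PAL1, PAL2, C4H and TT4 were tested and did not pass. Chalcone isomerase TT5 had 73.4, 72 and 59 FPKM in siz1-2, against 43, 43.7 and 39.6 FPKM in Col-0 (log2 fold change 0.68 ± 0.11 SE, adjusted p = 0.00223). F3H rose by 0.65, the coumarate ligases 4CL1, 4CL2 and 4CL3 by 0.64, 0.52 and 1.07, and the glycosyltransferases UGT78D1 and UGT78D2 by 0.82 and 1.00. PAL4, a phenylalanine ammonia-lyase at the entry to the pathway, was lower, at 10.8, 12.4 and 8.74 FPKM in siz1-2, against 23.2, 21.7 and 17.5 FPKM in Col-0 (log2 fold change -0.94 ± 0.19 SE, adjusted p = 0.00812). Without both libraries 6 of 17 rose and 1 fell, and the median was 0.53. A count of 6 was also reached without siz1-2 IAA 1 and without siz1-2 IAA 2.

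Of 25 cytokinin genes (synthesis, oxidation and the type-A response regulators) 8 fell and 2 rose (32.0% and 8.0%), with a median of -0.22. ARR5, listed as RR5, had 16.9, 17 and 20.6 FPKM in siz1-2, against 44.4, 66.2 and 46.9 FPKM in Col-0 (log2 fold change -1.49 ± 0.15 SE, adjusted p = 8.23e-05). ARR6 had 19.2, 17.6 and 14.9 FPKM in siz1-2, against 38.8, 47.8 and 37.5 FPKM in Col-0 (log2 fold change -1.24 ± 0.15 SE, adjusted p = 0.000392). ARR4 had 71.8, 74.9 and 66.4 FPKM in siz1-2, against 145, 162 and 94.5 FPKM in Col-0 (log2 fold change -0.88). These 3 response regulators, whose transcripts are early cytokinin responses, were lower in every siz1-2 library.

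Synthesis genes followed. LOG7, which releases active cytokinin bases, had 46.6, 40.4 and 43.4 FPKM in siz1-2, against 72.3, 91.2 and 103 FPKM in Col-0 (log2 fold change -1.01 ± 0.13 SE, adjusted p = 0.000414). CYP735A2, which makes trans-zeatin, had 10.9, 12.7 and 10.3 FPKM in siz1-2, against 25.1, 22.4 and 20.7 FPKM in Col-0 (log2 fold change -0.98 ± 0.14 SE, adjusted p = 0.00088), and its homologue CYP735A1 had 2.41, 1.69 and 1.91 FPKM in siz1-2, against 4.12, 5.32 and 6.77 FPKM in Col-0 (log2 fold change -1.22 ± 0.20 SE, adjusted p = 0.0021). The 3 synthesis genes were separated by genotype. IPT5, an isopentenyltransferase of the first step, fell by 0.61 and the oxidase CKX4 by 1.29 on the log2 scale.

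The 2 that rose were ARR3, another type-A regulator, at 9.75, 11.2 and 10.6 FPKM in siz1-2, against 5.58, 5.03 and 3.17 FPKM in Col-0 (log2 fold change 1.14 ± 0.22 SE, adjusted p = 0.0059), and IPT7, another isopentenyltransferase, at 5.61, 5.92 and 5.05 FPKM in siz1-2, against 2.41, 4.11 and 2.64 FPKM in Col-0 (log2 fold change 0.79 ± 0.20 SE, adjusted p = 0.024). Both were separated by genotype. IPT7 lost its call without both libraries (adjusted p = 0.117), where 9 of 25 fell and 1 rose. Falls numbered from 5, without siz1-2 IAA 3, to 9 over the single libraries left out. On MS 2 fell and 1 rose. CYP735A2 had 41.1, 57.4 and 42.3 FPKM in siz1-2, against 42.9, 43.1 and 43 FPKM in Col-0 on MS (log2 fold change 0.11 ± 0.14 SE, adjusted p = 0.708), where the genotypes overlapped.

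**Figure D3:**
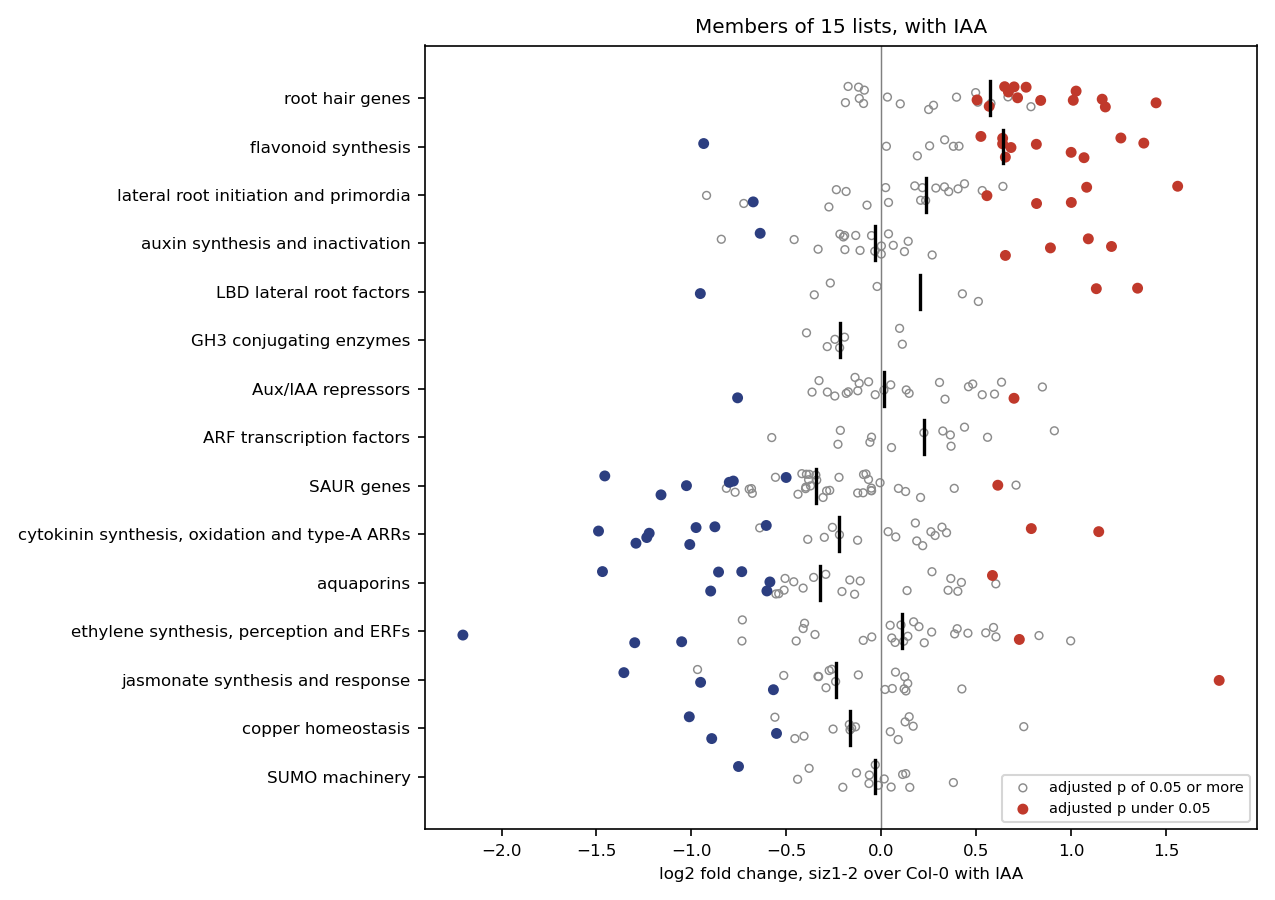
Log2 fold change, siz1-2 over Col-0 with IAA, of every tested member of 15 lists (1 point per gene, spread vertically at random). Filled points passed an adjusted p of 0.05 (red higher and blue lower in siz1-2), open points did not, and black bars are list medians, which are highest for flavonoid synthesis (0.64) and root hair genes (0.57) and lowest for SAUR genes (-0.34) and aquaporins (-0.32).

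Of 26 aquaporins, channels for water and small solutes, 6 fell and 1 rose (23.1% and 3.85%), with a median of -0.32. NIP1;1, listed as NLM1, had 1.52, 1.19 and 1.3 FPKM in siz1-2, against 6.27, 4.06 and 3.72 FPKM in Col-0 (log2 fold change -1.47 ± 0.18 SE, adjusted p = 0.000307). NIP1;2 had 9.28, 8.01 and 8.46 FPKM in siz1-2, against 13.6, 15.8 and 14.4 FPKM in Col-0 (log2 fold change -0.73 ± 0.14 SE, adjusted p = 0.00523). SIP1;2, a channel of the endoplasmic reticulum, had 2.68, 3.2 and 2.52 FPKM in siz1-2, against 5.61, 6.24 and 4.62 FPKM in Col-0 (log2 fold change -0.86 ± 0.16 SE, adjusted p = 0.00426). All 3 were separated by genotype and kept their calls in every setting tried. The plasma membrane channels PIP2;4, PIP1;1 (PIP1A) and PIP2;2 (PIP2B) fell by 0.90, 0.59 and 0.60 on the log2 scale. The PIP genes lost their calls without both libraries, without siz1-2 IAA 3 and when each library was centred on its median, each of which left 3 falls of 26. NIP5;1, a boric acid channel, rose (log2 fold change 0.59 ± 0.12 SE, adjusted p = 0.00998).

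Several genes of mineral uptake differed in the same comparison. PHT1;4, a phosphate transporter, had 43.3, 49.9 and 47 FPKM in siz1-2, against 23.8, 15.2 and 15.7 FPKM in Col-0 (log2 fold change 1.36 ± 0.19 SE, adjusted p = 0.000795), and 4 of 29 phosphate genes rose and 1, PPCK1, a kinase of phosphoenolpyruvate carboxylase, fell (log2 fold change -1.12 ± 0.13 SE, adjusted p = 0.000305), though without siz1-2 IAA 1 or siz1-2 IAA 3 PHT1;4 was the 1 of 29 that rose. NAS2, which makes the metal chelator nicotianamine, had 32.3, 30.4 and 27.2 FPKM in siz1-2, against 13.3, 10.8 and 7.79 FPKM in Col-0 (log2 fold change 1.48 ± 0.32 SE, adjusted p = 0.0118), while bHLH39, a factor of iron deficiency, had 12.9, 13 and 11.1 FPKM in siz1-2, against 31.6, 40.3 and 31.2 FPKM in Col-0 (log2 fold change -1.43 ± 0.22 SE, adjusted p = 0.00131). Both of these held without both libraries. Of 31 iron genes 4 rose and 2 fell, and without siz1-2 IAA 2 or siz1-2 IAA 3 the counts were 1 and 1. Of 17 copper genes 3 fell (COPT2, CCH and CSD1, a copper importer, a copper chaperone and a superoxide dismutase, by 1.01, 0.89 and 0.55 on the log2 scale) and 0 rose, also at an unadjusted p under 0.05, while without siz1-2 IAA 3 the count of falls was 0. Of 18 nitrate genes 3 rose and 1 fell, NIA2, nitrate reductase, rising by 0.67. Without both libraries 2 nitrate genes rose and 0 fell, and with 1 library left out the rises numbered 1 (without siz1-2 IAA 2 or siz1-2 IAA 3) to 4.

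Vascular and endodermal genes gave single differences. SKOR, the channel that loads potassium into the xylem, had 4.02, 3.83 and 1.83 FPKM in siz1-2, against 7.4, 13.6 and 9.52 FPKM in Col-0 (log2 fold change -1.54 ± 0.28 SE, adjusted p = 0.00421). SUC2, the phloem sucrose carrier, had 12.5, 13 and 11.2 FPKM in siz1-2, against 28.4, 26.8 and 26.5 FPKM in Col-0 (log2 fold change -1.13 ± 0.20 SE, adjusted p = 0.00326). CASP5, a Casparian strip scaffold, had 19.7, 18.4 and 18.7 FPKM in siz1-2, against 6.36, 7.13 and 5.7 FPKM in Col-0 (log2 fold change 1.5 ± 0.17 SE, adjusted p = 0.000239). All 3 separated by genotype and held without both libraries. Of 6 pericycle markers SKOR was the 1 that fell, of 17 xylem and phloem markers 1 rose and 1 fell, and of 7 endodermis and 6 root cap markers 0 rose and 0 fell (1 and 1, and 2 and 0, at an unadjusted p under 0.05).

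Of 30 ethylene and ERF genes 3 fell and 1 rose in siz1-2 with IAA, with a median of 0.11, and without both libraries 3 fell and 2 rose. ERF104, an immune ethylene-response factor, had 9.82, 7.75 and 15.4 FPKM in siz1-2, against 67, 38 and 50.5 FPKM in Col-0 (log2 fold change -2.20 ± 0.27 SE, adjusted p = 0.000355). ERF1A, listed as ERF-1, had 8.1, 12.3 and 10.3 FPKM in siz1-2, against 38.7, 19 and 22.7 FPKM in Col-0 (log2 fold change -1.3 ± 0.25 SE, adjusted p = 0.00513). The zinc-finger factor ZAT12, listed as RHL41, had 4.36, 4.97 and 8.66 FPKM in siz1-2, against 33.9, 15.2 and 16.9 FPKM in Col-0 (log2 fold change -1.76 ± 0.33 SE, adjusted p = 0.00488). In all 3 Col-0 IAA 1 was the highest library, the genotypes did not overlap, and the calls held without both libraries (log2 fold changes -1.79, -1.14 and -1.31).

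ZAT10, listed as STZ, had 8.08, 11.2 and 26.7 FPKM in siz1-2, against 116, 31.6 and 54 FPKM in Col-0 (log2 fold change -2.07 ± 0.55 SE, adjusted p = 0.0326), and its call was lost without both libraries (adjusted p = 0.166), as was that of ERF4 (log2 fold change -1.05, and -0.75 without both, adjusted p = 0.057). Of 14 cold response genes 3 fell, CBF2 among them, and 1 rose, ICE1, a known SUMO target of SIZ1, by 0.59 (adjusted p = 0.04, and 0.143 without both libraries). Without both libraries 1 of the 14 fell and 0 rose, and 1 fell without siz1-2 IAA 2 alone. Of 21 jasmonate genes 3 fell and 1 rose, while 5 fell without both libraries and 1 fell without Col-0 IAA 1, siz1-2 IAA 1 or siz1-2 IAA 3. VSP2, a storage protein, had 1.51, 2.29 and 2.24 FPKM in siz1-2, against 0.202, 0.337 and 0.147 FPKM in Col-0 (log2 fold change 1.78 ± 0.28 SE, adjusted p = 0.00176), and JAZ7, a repressor of the pathway, 0.0547, 0.111 and 0.23 FPKM in siz1-2, against 1.24, 0.903 and 1.19 FPKM in Col-0 (log2 fold change -1.36 ± 0.26 SE, adjusted p = 0.00526).

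Immune genes gave few calls, and several members of their lists were not tested. PBS3, SARD1, NIMIN1, ACD6, PR2 and PR5 of the salicylic acid list did not pass the expression filter. PR1 was absent from the data, and the receptor FLS2 was not among the genes tested. The shares that rose were 10.5% of the salicylic acid list and 12.5% of the pattern-triggered list, beside 3.91% of all genes. Of 19 salicylic acid genes 2 rose and 1 fell: FMO1, which makes the defence signal N-hydroxypipecolic acid, had 1.62, 1.57 and 1.73 FPKM in siz1-2, against 0.321, 0.412 and 0.536 FPKM in Col-0 (log2 fold change 1.22 ± 0.24 SE, adjusted p = 0.00676), UGT76B1 rose by 0.55, and NDR1 fell by 0.90. Of 24 genes of pattern-triggered immunity 3 rose and 0 fell (4 and 1 at an unadjusted p under 0.05), led by the receptor-like protein RLP30 at 26.6, 29.4 and 33.6 FPKM in siz1-2, against 8.96, 9.0 and 9.47 FPKM in Col-0 (log2 fold change 1.65 ± 0.13 SE, adjusted p = 9.3e-06) and the chitin receptor partner LYK4 at 16.9, 14.9 and 18.7 FPKM in siz1-2, against 7.88, 10.5 and 8.77 FPKM in Col-0 (log2 fold change 0.86 ± 0.15 SE, adjusted p = 0.00274). Both were separated by genotype, also on MS in the test (adjusted p = 0.000115 and 0.0167). Of 11 NLR receptor genes and 8 camalexin genes 0 rose and 0 fell (1 and 0, and 2 and 0, at an unadjusted p under 0.05). Of 52 WRKY genes 1 rose and 5 fell, with 1 fall without siz1-2 IAA 1 or siz1-2 IAA 3. With 1 IAA library left out, the rises of WRKY genes numbered 0 to 5 and the falls 1 to 6.

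Genes of wall-loosening enzymes gave calls in both directions. Of 27 XTH genes, whose products cut and rejoin xyloglucan, 4 rose and 1 fell, with XTH20 at 78.9, 85 and 97.8 FPKM in siz1-2, against 34.2, 31.9 and 32 FPKM in Col-0 (log2 fold change 1.40 ± 0.14 SE, adjusted p = 6.9e-05) and XTH11 at 2.84, 2.4 and 3.35 FPKM in siz1-2, against 0.326, 0.704 and 0.249 FPKM in Col-0 (log2 fold change 1.88 ± 0.28 SE, adjusted p = 0.0012). Of 22 expansins 1 rose and 2 fell, with EXPA11 at 11.9, 18.4 and 15.2 FPKM in siz1-2, against 49.4, 30.7 and 32.5 FPKM in Col-0 (log2 fold change -1.27 ± 0.19 SE, adjusted p = 0.00118). The genotypes were separated in these 3 genes. The shares were 14.8% higher and 3.70% lower for XTH genes, and 4.55% and 9.09% for expansins. Over all genes they were 3.91% and 5.21%. With 1 IAA library left out, 3 to 6 XTH genes rose and 0 to 1 fell, while 0 to 2 expansins rose and 1 to 2 fell.

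Secondary metabolism held opposite changes. The root triterpene genes CYP708A2 and CYP705A5, which act on thalianol and lie side by side, had 2.15, 2.7 and 1.96 FPKM in siz1-2, against 19.3, 20.9 and 17.6 FPKM in Col-0 for CYP708A2 (log2 fold change -2.84 ± 0.42 SE, adjusted p = 0.00117) and 3.63, 6.28 and 2.45 FPKM in siz1-2, against 27.2, 20.2 and 16.3 FPKM in Col-0 for CYP705A5 (log2 fold change -2.29 ± 0.59 SE, adjusted p = 0.0284). All 7 tested genes of the triterpene clusters were lower in every siz1-2 library, of which 3 passed the test with IAA (2 without both libraries, and 1 without siz1-2 IAA 1 or siz1-2 IAA 3) and 7 on MS. Of 29 glucosinolate genes 5 rose and 1 fell, with 2 rises without siz1-2 IAA 1, 2 or 3. IGMT2 was higher, at 13.1, 9.79 and 13.6 FPKM in siz1-2, against 2.42, 4.27 and 2.88 FPKM in Col-0, and IGMT1 lower, at 6.76, 5.7 and 6.08 FPKM in siz1-2, against 27.5, 26.9 and 19.6 FPKM in Col-0, but the coding sequences of this pair are nearly alike and the way reads were shared between them is not known. Of 33 glutathione transferases 4 rose and 1 fell, with GSTU4 at 11.1, 12.1 and 12.3 FPKM in siz1-2, against 4.39, 6.16 and 4.25 FPKM in Col-0 (log2 fold change 1.2 ± 0.23 SE, adjusted p = 0.00572). With 1 library left out, 2 (without siz1-2 IAA 1) to 6 (without Col-0 IAA 1) of these rose and 0 to 2 fell.

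Further lists gave few calls, and many of these counts shifted by 1 or more when a library was left out. Of 24 clock genes 4 fell and 1 rose, and without Col-0 IAA 3 or siz1-2 IAA 3 0 fell. LHY, a morning factor, had 2.82, 3.13 and 2.58 FPKM in siz1-2, against 4.01, 4.63 and 6.31 FPKM in Col-0 (log2 fold change -0.69 ± 0.18 SE, adjusted p = 0.0286). Of 53 cell cycle genes 2 rose and 0 fell (17 and 1 at an unadjusted p under 0.05; without both libraries 0 rose and 1 fell), and of 17 abscisic acid genes 1 rose and 1 fell. CYP707A1, which breaks abscisic acid down, rose by 0.88, and PP2CA, a repressor phosphatase of its signalling, fell by 0.67. Of 15 gibberellin genes 1 rose and 2 fell, of 13 brassinosteroid genes 0 rose and 1 fell, of 20 suberin genes 1 rose and 1 fell, of 11 Casparian strip genes CASP5 was the 1 that rose, of 23 heat shock genes and of 23 ER chaperone genes 0 rose and 1 fell each, and of 8 HD-ZIP class II genes 0 rose and 1 fell. Of 5 AZI1-type proline-rich protein genes 1 fell, AIR1 (log2 fold change -0.85 ± 0.22 SE, adjusted p = 0.0297, and adjusted p = 0.125 without both libraries), and of 10 calmodulin-like genes 2 fell (3 at an unadjusted p under 0.05). None of the 34 green-tissue markers passed (0 higher and 2 lower at an unadjusted p under 0.05), with a median of -0.54, and without both libraries 6 fell.

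The MS libraries did not enter the fold changes that chose the 604 DEGs, but they did enter the estimate of spread and the expression filter. They showed genotype differences of the same sign in most of the 604. The share of equal signs over all genes tested was not computed, so these shares have no background beside them. At an adjusted p under 0.05 on MS, 2.75% of all genes were higher and 2.55% lower. Of the 292 higher with IAA, 284 had the same sign on MS (97.3%), 159 of those passed the test there (54.5%) and 127 were also DEGs on MS (43.5% of the 292 and 52.5% of the 242 DEGs higher on MS, which are 1.29% of all genes). Of the 312 lower with IAA, 299 had the same sign (95.8%), 156 passed (50%) and 101 were also DEGs (32.4% of the 312 and 56.4% of the 179 lower on MS, which are 0.955% of all genes). No DEG with IAA passed in the opposite direction on MS. The 2 contrasts share no library, though they share the estimate of spread, so the MS test is not an independent check. When the IAA libraries were fitted alone there were 523 DEGs, of which 508 were among the 604. The median log2 fold change of the 292 was 1.27 with IAA and 0.96 on MS, and that of the 312 was -1.28 with IAA and -0.84 on MS, where the IAA values were those that chose the genes.

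**Figure D4:**
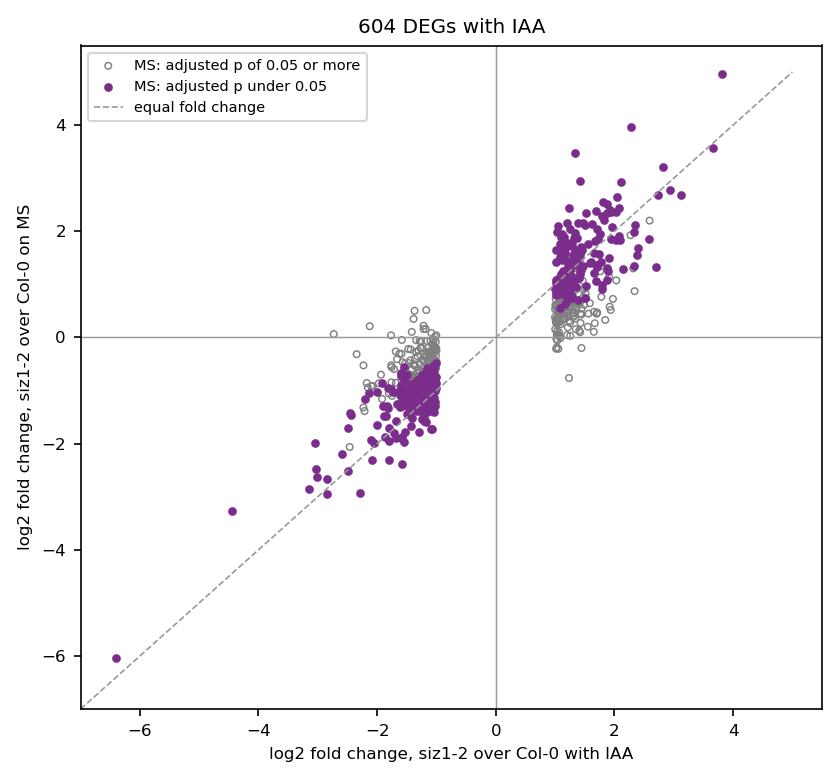
Log2 fold change, siz1-2 over Col-0, with IAA (x axis) and on MS (y axis) for the 604 DEGs with IAA. Each point is 1 gene, filled where it also passed an adjusted p of 0.05 on MS, the dashed line marks equal values, and 583 of the 604 points lie in the 2 quadrants of equal sign.

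The test of whether the genotype difference itself changed with IAA was passed by 3 of 18743 genes, 1 of which, AT5G14690, is a DEG with IAA (2124 genes at an unadjusted p under 0.05). AT5G14690, a transmembrane protein, had 22.7, 24.8 and 24.2 FPKM in siz1-2, against 78, 76.8 and 69.6 FPKM in Col-0 with IAA, and 13.1, 13.4 and 14.3 FPKM in siz1-2, against 15.3, 16.8 and 18.9 FPKM in Col-0 on MS. It was separated by genotype in both, with the wider gap under IAA. The remaining pair, GH3.3 and AT2G36210 (SAUR45), passed between genotypes on MS and not with IAA. The next 3 by p-value did not pass (adjusted p = 0.08 each), and of them AT1G33090, a MATE-type efflux protein, had 2.31, 2.89 and 2.73 FPKM in siz1-2, against 0.648, 0.64 and 0.664 FPKM in Col-0 with IAA (log2 fold change 1.44 ± 0.18 SE, adjusted p = 0.000401), and 2.52, 3.26 and 1.95 FPKM in siz1-2, against 3.08, 2.91 and 2.94 FPKM in Col-0 on MS. Genes named above as past the test with IAA and not on MS are therefore, apart from AT5G14690, not shown to differ between the treatments.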

How the data were processed

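RNA of siz1-2 and Col-0 roots, with IAA and on MS, was sequenced as 12 libraries (4 groups of 3). For every library the authors deposited FPKM per gene, made on a sequencing provider's platform. Its aligner, genome build, annotation and read depth were not given in the sources used. The table pairs gene identifiers with symbols, and all 23853 matched RefSeq's TAIR10.1 table, which was used for names and gene order only. Labels name IAA in the treatment protocol of all samples, so titles and the treatment label set the groups. Genes with 1 FPKM or more in at least 3 libraries were tested on log2(FPKM + 0.5) with limma 3.58.1 in R 4.3.3 (trend on, 4 group means, 12 libraries), with Benjamini-Hochberg adjustment over 18743 genes. DEGs were genes with a log2 fold change of at least 1 in size and an adjusted p under 0.05, and a list member rose or fell at an adjusted p under 0.05. In simulated data with 3 libraries a group, the IAA contrast called 12 of 50 genes changed 1.5-fold, 41 of 50 changed 2-fold and 49 of 50 changed 3-fold, over 18743 genes. The changed genes were drawn from those with a mean over 5 FPKM, with normal noise and no library set apart. The counts therefore do not cover genes at lower levels or a library such as Col-0 IAA 1.

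Members and lists were chosen with earlier results of these data known. Named were SIZ1 and 27 further genes of auxin, SUMO and lateral roots (4 of the 28 were not tested, and 1 is not reported here), the 12 largest rises and falls as defined below, up to 4 members of a list by the size of limma's statistic, the 6 smallest p-values of the difference between treatments, and genes near 0 in 1 genotype. Members past the test beyond these 4 were named after their values were seen. The 52 lists hold 953 distinct genes tested. Alternatives were other pseudocounts (0.1 and 1), filters, centring, quantile normalization, limma without trend or with robust estimation, the 2 groups alone, a green-tissue covariate, a replicate block, and each library left out.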

Additional observations from a re-analysis of the deposited data

Results flagged for a closer look

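In 3 genes the difference between siz1-2 and Col-0 itself differed between IAA and MS past the test (limma, adjusted over 18743 genes). For GH3.3, an enzyme that joins IAA to amino acids, the difference with IAA minus that on MS was -3.06 ± 0.20 SE, adjusted p = 2.32e-05. Its values were 712, 766 and 819.7 FPKM in siz1-2, against 763, 639.6 and 728 FPKM in Col-0 with IAA, and 10.6, 14.6 and 16.1 FPKM in siz1-2, against 1.21, 1.06 and 0.932 FPKM in Col-0 on MS. The genotypes thus overlapped with IAA and were far apart on MS, with siz1-2 the higher.

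For AT2G36210 (SAUR45), a small auxin-induced gene, the same measure was -1.57 ± 0.22 SE, adjusted p = 0.0369. It had 17.1, 18.2 and 14.5 FPKM in siz1-2, against 24.9, 18.6 and 20.2 FPKM in Col-0 with IAA, and 13.4, 15.4 and 11.3 FPKM in siz1-2, against 5.02, 5.48 and 5.71 FPKM in Col-0 on MS, so siz1-2 was higher in every library on MS and lower in every library with IAA, where the test was not passed. For AT5G14690, a transmembrane protein, it was -1.32 ± 0.15 SE, adjusted p = 0.00949, and this gene fell with IAA by 1.62 on the log2 scale, while its log2 fold change on MS was -0.31 (adjusted p = 0.141).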

How the results depend on the processing

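Depth and read counts are unknown, and with 3 libraries a group changes under 2-fold were often missed in simulated data. With IAA, 292 genes were higher and 312 lower; leaving out 1 library gave 211 (without siz1-2 IAA 3) to 339 (without Col-0 IAA 3) higher and 267 to 322 lower, and on MS 190 to 270 higher and 136 to 213 lower. A filter of 5 FPKM left 181 higher with IAA. With no fold limit there were 732 higher and 977 lower with IAA, and 516 and 478 on MS. Centring each library on its median gave 290 and 316 with IAA, and moved the split on MS to 316 higher and 120 lower, against 242 and 179. For the difference between treatments, limma without trend called 1 gene as higher (0 otherwise), and the 3 lower ones numbered 1 to 7 with 1 library left out. Deviations of libraries of the same number correlated by 0.119, 0.203 and 0.337 on MS, and those of different numbers by -0.28 to 0.15. With IAA the values were -0.279, -0.273 and 0.0571 for the same number and -0.325 to 0.399 for different numbers. The numbers were not taken as pairs in the main fit for either treatment. The replicate block gave 295 and 307 DEGs with IAA and 245 and 168 on MS. The cause of these differences was not tested. Among comparisons of a named gene with a setting, 5865 kept their side of the threshold, 666 lost it, 72 gained it, and 21, none past the threshold, changed sign. Of 1836 such comparisons of list counts, 336 moved by over 1.5 times, as did 10 of 146 for counts of all genes.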

Other observations

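Several gene groups outside the lists were formed after their values had been seen and are given as descriptions. Of 10 tested sugar starvation and dark-inducible genes 7 fell and 0 rose in siz1-2 with IAA, with a median log2 fold change of -1.22, and 8 fell on MS. bZIP1, a factor of low-energy signalling, had 8.09, 5.28 and 9.89 FPKM in siz1-2, against 30.1, 37.4 and 27.7 FPKM in Col-0. DYL1, a dormancy-associated protein, had 27.2, 18.1 and 16.7 FPKM in siz1-2, against 77.8, 75.3 and 65.1 FPKM in Col-0. Class II trehalose phosphate synthase genes followed, with 4 of 7 lower (TPS8, TPS11, TPS9 and TPS10, by 1.68, 1.54, 1.14 and 0.82 on the log2 scale), as did BT1, BT2 and BT5 of the BT scaffold family, by 1.58, 1.8 and 1.46, while BT4 rose by 1.31. Of 9 genes of the glyoxylate cycle and its partners 3 rose and 0 fell (median 0.24), and of 5 sucrose synthases 2 rose and 0 fell. ICL and MLS, the enzymes particular to the glyoxylate cycle, rose by 2.11 and 1.59, and the sucrose synthase SUS3 by 1.21.

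Of 20 extensins, structural proteins of the wall, 13 rose and 0 fell with IAA (median 1.1), against 1 rise on MS (median 0.53). The same number, 13, rose without Col-0 IAA 1 and siz1-2 IAA 2, and leaving out single IAA libraries gave 7 to 14. No extensin passed the test of the difference between treatments. The median log2 deviation from the mean of the IAA libraries was 0.06, 0.42 and 1.05 in siz1-2 IAA 1, 2 and 3. In Col-0 IAA 1, 2 and 3 it was -0.17, -0.82 and -0.60. Extensins are repetitive and alike, so how reads were shared among them is uncertain. Of 55 peroxidases 12 rose and 3 fell, of 4 legume lectins 3 rose, and of 9 methionine sulfoxide reductases of type B 5 fell, of which MSRB4, MSRB5 and MSRB6 lie side by side. The potassium carrier HAK5 had 6.54, 10.8 and 15.5 FPKM in siz1-2, against 2.22, 2.43 and 2.75 FPKM in Col-0, and the osmotin OSM34 50.7, 58 and 50.8 FPKM in siz1-2, against 12.6, 14.9 and 13.3 FPKM in Col-0. RAV1, an AP2/B3 factor, was lower, at 9.59, 9.36 and 10.1 FPKM in siz1-2, against 31.4, 23 and 22.5 FPKM in Col-0.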
